A study of Mus musculus with 6 samples.

Results

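Smooth muscle contractile genes encode the actin filaments of the contractile apparatus, the myosin that pulls on them and the proteins that stabilize and anchor them. The set described here comprises 10 genes chosen by symbol, Acta2, Actg2, Tagln, Cnn1, Myh11, Myl9, Des, Tpm1, Tpm2 and Lmod1, out of 26264 genes listed in each count table. All 10 were listed for all 6 libraries, with 0 counts of Actg2 in 1 of them. The libraries are bulk RNA sequencing of immortalized brown preadipocytes and the adipocytes differentiated from them, with 1 library for each combination of 2 treatments and 3 days, so no difference between 2 libraries has a replicate check. The cells, labelled Bl6N, wild-type, came from the stromal vascular fraction of interscapular brown fat (iBAT) and, per the study's methods, carry SV40 large T antigen introduced by retrovirus, in untreated and treated groups alike. The untreated group received no FGF8, and the FGF8-treated group received 5.5 nM FGF8 for 48 h before any induction of differentiation. Cells were harvested directly after this pretreatment (day 0), on day 3, or on day 7, named here as in the labels. Day 7 counts the days on differentiation medium and corresponds to day 9 after the pretreatment when the 2 days of induction are added, whereas the study counts day 3 from the end of the pretreatment. The step from day 3 to day 7 is therefore longer than the names say. The titles and source labels name brown cells, but the growth protocol in the labels describes primary white preadipocytes, and the text follows the titles. All cells of days 3 and 7 had been exposed to the same induction cocktail, which per the study's methods contains insulin, T3, IBMX, dexamethasone, indomethacin and rosiglitazone. Whether the 6 cultures were handled in parallel is not given in the sources used here.

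In smooth muscle, transcription of these genes is driven by serum response factor (SRF), which binds a DNA element called the CArG box and is assisted by myocardin in smooth muscle and by the myocardin-related transcription factors (MRTFs) more broadly. Fibroblasts and adipose progenitors express part of the same set when they become myofibroblasts, with smooth muscle alpha-actin (Acta2) as the usual marker, and TGF-beta and a stiff substrate are known to promote this state. MRTF and SRF activity are known to oppose adipogenesis, and white and beige progenitors can share features with vascular mural cells.

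The libraries held between 16403254 and 38551551 counts. Values below are normalized counts, that is, counts divided by a size factor of the library. The marker genes followed the labels. Adipoq, an adipocyte hormone, had at most 1.47 normalized counts in the day 0 libraries and at least 18265 in those of days 3 and 7, and Pdgfra, a receptor of adipose progenitors, was present in all 6 libraries. Of the markers of pericytes and vascular smooth muscle, the defining ones were low, with at most 1 count of Kcnj8 or Abcc9 in any library and between 9.76 and 30.8 normalized counts of Rgs5. Others of that list were well expressed, Pdgfrb with 1474 to 8731 normalized counts, Cspg4 with 286.4 to 2239, Notch3 with 112.7 to 1773 and Mcam with 196.8 to 922.3 (these 4 were named after their values were seen). Myod1 and Adgre1, which define skeletal muscle and macrophages, had 0 counts in all 6 libraries, which allows up to 3 counts per library. Myog, the other defining gene of skeletal muscle, had at most 3 counts, and Pecam1 and Cdh5, which define endothelium, had at most 17 and 7 counts. The other endothelial markers on the list, Kdr and Tek, also named after their values were seen, were present in untreated preadipocytes and lower after FGF8. Kdr had 1288, 132.4 and 27.0 normalized counts in untreated and 7.68, 19.7 and 0.81 in FGF8-treated cells of days 0, 3 and 7. Tek had 326.1, 64.9 and 160.4 in untreated and 42.2, 9.83 and 25.2 in FGF8-treated cells, and passed edgeR's test over the 3 days (log2 fold change -2.80, adjusted p = 0.0429, 7.63e-11 to 1 over the alternatives). Of the other macrophage and skeletal muscle markers, also named after their values were seen, Cd68 had 27 to 141 counts and Csf1r 4 to 61. Csf1r was lower in the FGF8 library on each day. Acta1 had 0 counts on day 0 and 15 to 60 on days 3 and 7. The rest of these lists had at most 16 counts in any library. The part of cells with these markers in the contractile genes was not tested. The libraries are of bulk cells, so fewer contractile cells and less RNA per cell cannot be told apart.

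For 7 of the 10 genes a RefSeq promoter sequence (build GRCm38.p6, 250 bases before to 50 bases after the annotated start) was at hand. The exceptions are Actg2, Tagln and Myh11. A strict CArG box, CC followed by 6 bases that are each A or T and then GG, read the same way on both strands, occurred in the promoter of Myl9 and in none of the other 6. Of 32851 promoters of this length, 1.63% held one. A looser form with 1 of the 6 middle bases being C or G, searched after the strict result was seen, occurred in Acta2 and Myl9 and in 8.50% of all promoters. The motif GGAATG, which TEAD factors bind, was searched on both strands and occurred in Acta2, Lmod1 and Tpm1 and in 14.7% of all promoters. The 200 bases before the start of Acta2 and Myl9, which were lower after FGF8, and of Des, which was higher on days 3 and 7, are shown 5′ to 3′ on the strand of the gene, with all matches to these 3 patterns in capitals. In Acta2 the capitals mark GGAATG and, nearer the start, 2 loose CArG matches. In Myl9 they mark the strict CArG box, CCTAATAAGG, which begins 161 bases before the start, and then a loose match. Des has no match in this stretch. Cnn1 and Tpm2, which were lower after FGF8 on day 3, had no match to any of the 3 patterns either. Lmod1 and Tpm1, also lower on day 3, had GGAATG but no strict or loose CArG match. A link between matches and the direction after FGF8 was not tested. A match is a description of the letters and not evidence of binding.
Acta2 (chr19:34255374-34255573, minus strand): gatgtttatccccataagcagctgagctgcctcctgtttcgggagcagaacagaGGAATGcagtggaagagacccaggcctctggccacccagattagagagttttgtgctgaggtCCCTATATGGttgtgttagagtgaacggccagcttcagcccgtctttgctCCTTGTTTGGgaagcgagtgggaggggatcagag
Myl9 (chr2:156775264-156775463, plus strand): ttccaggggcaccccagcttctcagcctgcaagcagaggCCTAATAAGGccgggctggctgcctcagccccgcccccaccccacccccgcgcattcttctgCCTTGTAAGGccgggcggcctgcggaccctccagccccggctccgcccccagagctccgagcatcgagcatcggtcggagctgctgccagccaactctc
Des (chr1:75360092-75360291, plus strand): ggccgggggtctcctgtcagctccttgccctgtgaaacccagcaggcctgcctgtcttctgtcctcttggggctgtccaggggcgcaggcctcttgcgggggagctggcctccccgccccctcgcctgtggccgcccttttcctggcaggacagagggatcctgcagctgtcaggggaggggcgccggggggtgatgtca

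By the library in which they were highest, the contractile genes fell into 3 groups. Tagln, Myl9, Cnn1, Actg2, Tpm1 and Tpm2 were highest in untreated preadipocytes. Acta2, Myh11 and Lmod1 were highest in the untreated library of day 3. Des was highest in the FGF8 library of day 7, increased with the day in both treatments and was the single member that was higher after FGF8 on days 3 and 7 beyond its counting error. The summed level of all 10 genes was 24236 normalized counts in untreated cells of day 0, 12703 on day 3 and 9402 on day 7. In FGF8-treated cells it was 11484, 5044 and 7869 on the same days. The sum was therefore lower in the FGF8 library on each day. Its largest part in each of the 6 libraries was Tpm1, with between 34.3% and 65.1%.

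**Figure D1:**
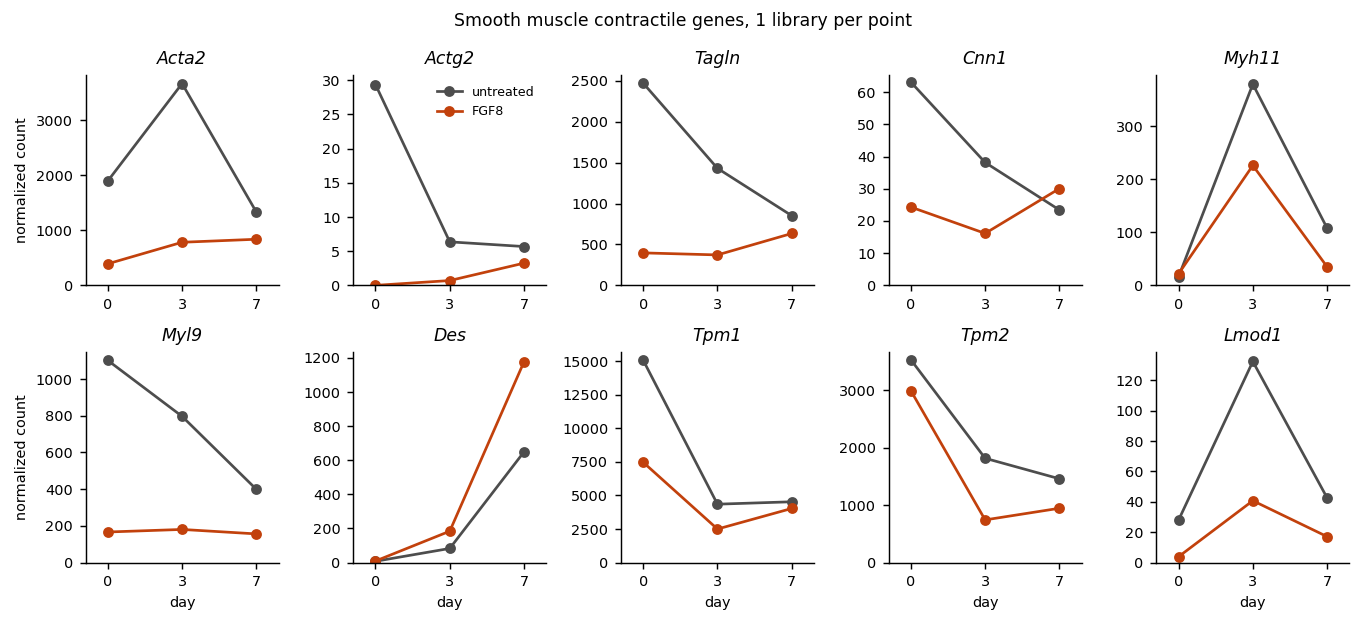
Normalized counts of the 10 contractile genes (vertical axes from 0, scaled per gene) by day (horizontal axes) in untreated cells (grey) and FGF8-treated cells (orange), 1 library per point and lines joining the days of a treatment. Acta2 peaks at 3669 in untreated cells of day 3, against 783.4 in the FGF8 library of that day, whereas Des ends at 649.5 in untreated and 1178 in FGF8-treated cells of day 7.

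Levels of different genes were compared per kb of annotated exon. In untreated preadipocytes Tpm1, a tropomyosin that lies along the actin filament, had 1868 normalized counts per kb, followed by Tagln with 1209, Tpm2 with 834.4, Acta2 with 588.1 and Myl9 with 480.4. The other 5 genes were far below these. Cnn1 had 23.1 normalized counts per kb, Actg2 13.3, Lmod1 6.83, Myh11 2.13 and Des 1.43. Smooth muscle myosin heavy chain (Myh11) and desmin (Des), both markers of differentiated muscle, were thus at the bottom of the order. In FGF8-treated cells of day 7 the order per kb was Tpm1 (499.1), Tagln (310.2), Acta2 (259.7), Des (229.0), Tpm2 (223.3) and Myl9 (68.1). Desmin had moved from the lowest place in untreated preadipocytes to the fourth. With 1 library per condition no spread can be put on the neighbours in these orders, and the exon length counts all annotated isoforms, which lowers the value of genes with many isoforms such as Tpm1.

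**Figure D2:**
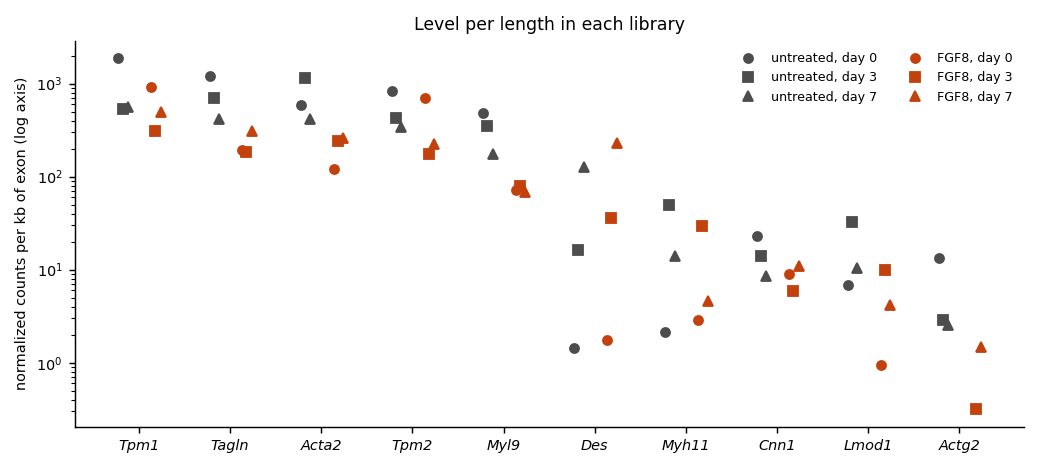
Normalized counts per kb of exon (log axis) of each gene, ordered by the mean over the 6 libraries, with grey for untreated and orange for FGF8-treated cells and a marker shape for each day. Each point is 1 library, and Actg2 in the FGF8 library of day 0 had 0 counts and is not drawn. The 6 points of Des span the range from 1.43 to 229.0.

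The first comparison asks what FGF8 does to these genes on each day. Members were counted where they averaged 20 or more normalized counts over the pair. On day 0, directly after the pretreatment, 5 of 6 such genes were at least 2-fold lower in the FGF8 library (Acta2, Tagln, Cnn1, Myl9 and Tpm1) and 0 were at least 2-fold higher. On day 3, 6 of 9 were at least 2-fold lower (Acta2, Tagln, Cnn1, Myl9, Tpm2 and Lmod1) and 1 higher (Des). On day 7, 3 of 9 were at least 2-fold lower (Myh11, Myl9 and Lmod1) and 0 higher. Of all genes that averaged 20 or more normalized counts over the pair, a minimum set for the members too, 10.8% were at least 2-fold lower and 7.27% higher on day 0. On day 3 these shares were 12.1% and 3.80%, and on day 7 they were 8.74% and 1.12%. The mean of 20 was reached by 6 of the 10 members on day 0, where Actg2, Myh11, Des and Lmod1 did not reach it, and by 9 on days 3 and 7, all but Actg2. Without this minimum, 7 of the 10 were at least 2-fold lower on day 0, 7 on day 3 and 3 on day 7. Over all 10 members the median log2 fold change was -1.81 on day 0, -1.48 on day 3 and -0.64 on day 7. The median of all genes that reached this minimum was 0.054, 0.081 and 0.083 on these days. Log2 fold changes were taken as log2(normalized count + 1) after FGF8 minus that without FGF8. The 95% interval given with each was computed by the Clopper-Pearson method from the counts in both libraries and covers counting error only.

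**Figure D3:**
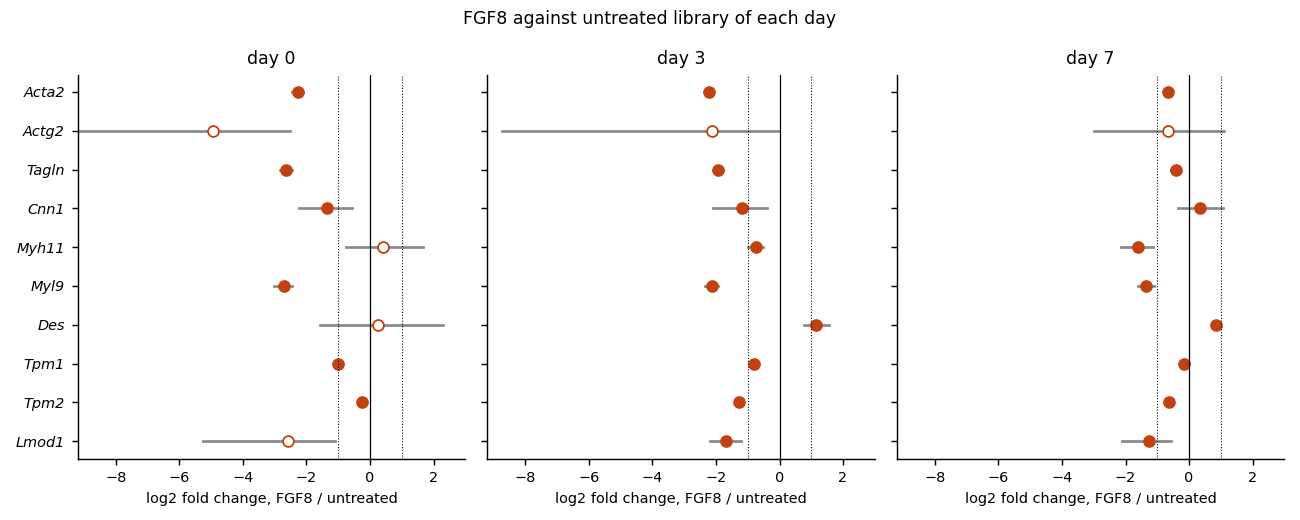
Log2 fold change of each contractile gene after FGF8 relative to no FGF8 (horizontal axes) on days 0, 3 and 7. Grey bars are 95% counting intervals (that of Actg2 on day 0 has no lower end and runs off the axis), open points are genes with a mean under 20 normalized counts in the pair, and dotted lines mark 2-fold. Tagln moves from -2.64 on day 0 to -0.43 on day 7, and Des is right of 0 on days 3 and 7.

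Acta2, smooth muscle alpha-actin (chromosome 19, 34217737 to 34232990 in GRCm39, minus strand), had 1898 normalized counts in untreated cells of day 0, 3669 on day 3 and 1332 on day 7. In FGF8-treated cells it had 391.7, 783.4 and 838.1. The 3 FGF8 libraries lay below the 3 untreated ones, which also held for Tagln, Myl9 and the rare Actg2. The share of all genes that separate in this way was not counted, so nothing is read from it. The gene was 4.84-fold lower on day 0, which is -2.27 on the log2 scale (95% interval -2.46 to -2.10), and 4.68-fold lower on day 3, at -2.23 (-2.33 to -2.13). On day 7 the difference had shrunk to 1.59-fold, at -0.67 (-0.78 to -0.56). Actg2, the gamma-actin of visceral smooth muscle (chromosome 6, 83489887 to 83513551), was rare throughout. It had 20 counts in untreated cells and 0 in FGF8-treated cells of day 0, which is at least 7.65-fold lower when the empty library is set at a floor of 3 counts. On days 3 and 7 it had 5 and 8 counts in untreated and 1 and 4 in FGF8-treated cells, and the interval on day 7 ran from -2.99 to 1.10 on the log2 scale. Reads of these actins can be shared with each other and with the other actin genes, so the split between them is uncertain.

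Tagln encodes transgelin (SM22), an actin-bundling protein that appears early in smooth muscle and in myofibroblasts (chromosome 9, 45840909 to 45847404). It had 2472, 1431 and 851.8 normalized counts in untreated cells of days 0, 3 and 7 and 396.9, 372.0 and 634.1 in FGF8-treated cells. As for Acta2, the highest FGF8 library lay below the lowest untreated one, again without a share of all genes to set beside it. The log2 fold change was -2.64 (-2.82 to -2.46) on day 0, -1.94 (-2.09 to -1.79) on day 3 and -0.43 (-0.56 to -0.29) on day 7, so that of a 6.23-fold difference 1.34-fold was left. Cnn1, calponin, which binds actin and restrains the myosin motor (chromosome 9, 22010512 to 22020926), had 63.2, 38.2 and 23.4 normalized counts in untreated and 24.3, 16.1 and 30.1 in FGF8-treated cells. It was lower on days 0 and 3, at -1.34 (-2.24 to -0.57) and -1.19 (-2.09 to -0.41), whereas the interval of day 7 (0.35, -0.36 to 1.08) included 0. With between 19 and 43 counts per library, Cnn1 is measured far less precisely than Tagln.

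The myosin subunits behaved differently from each other. Myl9, the regulatory light chain that is phosphorylated to start contraction (chromosome 2, 156617084 to 156623579), had 1102, 796.7 and 398.9 normalized counts in untreated cells of days 0, 3 and 7. In FGF8-treated cells it stayed between 156.1 and 180.4. Among members that reached the mean of 20 on each day it was the single one at least 2-fold lower on all 3 days, by 6.62-fold, 4.42-fold and 2.56-fold. The log2 fold changes were -2.72 (-3.01 to -2.46), -2.14 (-2.36 to -1.93) and -1.35 (-1.60 to -1.11). Myh11, the smooth muscle myosin heavy chain and the most specific marker of differentiated smooth muscle (chromosome 16, 14012399 to 14109236), had 11 counts in untreated and 17 in FGF8-treated cells of day 0, with an interval that included 0 (0.41, -0.75 to 1.67). On day 3 it had 379.3 normalized counts in untreated and 226.0 in FGF8-treated cells (-0.74, -0.98 to -0.51), and on day 7 107.9 and 35.0 (-1.60, -2.15 to -1.13). The difference in Myh11 was thus larger on day 7 than on day 3, with intervals that did not overlap, while that in Myl9, Acta2 and Tagln was smaller.

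The tropomyosins, Tpm1 (chromosome 9, 66929870 to 66956953) and Tpm2 (chromosome 4, 43514697 to 43524949), are coiled-coil proteins that gate the access of myosin to actin, and both are also made in non-muscle cells. Tpm1 had 15085, 4350 and 4529 normalized counts in untreated and 7474, 2497 and 4031 in FGF8-treated cells. Its log2 fold change was -1.01 (-1.06 to -0.97) on day 0, -0.80 (-0.87 to -0.73) on day 3 and -0.17 (-0.22 to -0.11) on day 7. The value of day 0 lay at the 2-fold limit, and with total counts as the scale it was -0.96. Tpm2 had 3536, 1817 and 1460 normalized counts in untreated and 2996, 743.4 and 946.3 in FGF8-treated cells. In contrast to Tpm1 it was little changed on day 0 (-0.24, -0.32 to -0.16) and most on day 3 (-1.29, -1.41 to -1.17). The gene-level counts do not separate the muscle from the non-muscle isoforms of either gene.

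Lmod1, leiomodin, which nucleates actin filaments in smooth muscle (chromosome 1, 135252509 to 135295907), had 27.9, 132.4 and 42.6 normalized counts in untreated and 3.84, 40.7 and 17.1 in FGF8-treated cells. It was also at least 2-fold lower on each day but did not reach the mean of 20 on day 0. There, with 19 counts against 3, the ratio of the normalized counts was 7.27-fold and the interval of its log2 ran from -5.26 to -1.10. On days 3 and 7 the log2 fold change was -1.68 (-2.19 to -1.22) and -1.27 (-2.11 to -0.58). Des, desmin, the intermediate filament protein of muscle (chromosome 1, 75320511 to 75345223), went the other way. It had 5 counts in untreated and 7 in FGF8-treated cells of day 0, then 82.7 and 183.9 normalized counts on day 3 and 649.5 and 1178 on day 7. The FGF8 library was 2.22-fold higher on day 3 (1.14, 0.76 to 1.57) and 1.81-fold higher on day 7 (0.86, 0.74 to 0.98).

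Some of these genes overlap others on the opposite strand. The library kit was stranded, but the strand setting of the counting is not given in the sources used here. Cnn1 overlaps Elof1, which had between 1054 and 1777 normalized counts, far more than Cnn1. Acta2 overlaps Stambpl1, which had 492.1 normalized counts in untreated and 1280 in FGF8-treated cells of day 0, the reverse of Acta2. Tagln overlaps Pcsk7, which had between 846.2 and 1558 normalized counts. The part of shared reads in the values above was not tested.

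Whether FGF8 had an effect common to days 0, 3 and 7 was asked with quasi-likelihood fits in edgeR that held a term for day and left 2 residual degrees of freedom. With 1 library per condition, these degrees of freedom hold how far the FGF8 effect differs between days. A gene whose effect differs between days thus gets a larger p, and not passing does not mean no effect on a day. None of the 9 contractile genes tested passed an adjusted p of 0.05 (Benjamini-Hochberg over 14569 genes), against 1.27% of all genes tested. At an unadjusted p under 0.05 there were 7 of the 9, against 23.3% of all genes. The largest estimate was that of Myl9, a log2 fold change of -2.09 with a standard error of 0.313 and an adjusted p of 0.0618 by edgeR (1.09e-07 to 0.732 over the alternatives), lower in 3 of 3 pairs. Acta2 had -1.75 (standard error 0.383, adjusted p = 0.107 by edgeR, 0.000115 to 1 over the alternatives) and Tagln -1.70 (standard error 0.466, adjusted p = 0.139, 0.00203 to 0.942), each lower in 3 of 3 pairs. Des had 0.88 (standard error 0.226, adjusted p = 0.129 by edgeR, 0.0117 to 1) and was higher in 3 of 3 pairs. The calls depended on the day 0 libraries. Without both of them, or without either the untreated or the FGF8 library of day 0, 7 members passed in edgeR (Acta2, Tagln, Myh11, Myl9, Tpm2 and Lmod1 lower, Des higher), beside 15.5% of all genes in the fit without both. Once 1 library of a day is left out, the other library of that day carries no information on FGF8 in this model, so these are nearly the same fit, with 1 residual degree of freedom. DESeq2's Wald test called 5 of 10, namely Acta2, Tagln, Myl9 and Lmod1 as lower and Des as higher, beside 12.4% of all genes. Without both libraries of day 3 or of day 7 none passed in edgeR, with 3 and 5 members at an unadjusted p under 0.05. In these fits 0 of 14256 and 0 of 13743 genes passed, so they say nothing about the members.

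The regulators of the program were described next. Myocd, which encodes the smooth muscle coactivator myocardin, had 0 counts in 4 libraries and at most 1.40 normalized counts in the other 2. Srf had 669.8, 1341 and 971.0 normalized counts in untreated cells of days 0, 3 and 7 and 736.1, 1118 and 834.9 in FGF8-treated cells. It differed by less than 2-fold between the treatments on each day (log2 fold changes 0.14, -0.26 and -0.22). The MRTF genes Mrtfa and Mrtfb, the TEAD factor gene Tead1, and Foxo4 and Elk1 also differed by less than 2-fold on each day, the largest difference being that of Mrtfa on day 3 (-0.72). Klf4, a factor known to repress smooth muscle genes, was lower on each day. It had 1049, 1036 and 574.3 normalized counts in untreated and 306.0, 200.8 and 161.8 in FGF8-treated cells, and of the 7 regulators tested it was the single one to pass edgeR's test over the 3 days (log2 fold change -2.01, standard error 0.198, adjusted p = 0.0429, 5.36e-13 to 0.732 over the alternatives). Of the 8 regulators, then, Klf4 alone was at least 2-fold different on any day among those that reached the mean of 20.

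Other genes of the actin cytoskeleton were counted in a list of 28, of which 25 reached a mean of 20 normalized counts on each day. On day 0, 6 of them were at least 2-fold lower after FGF8 and 1 higher, on day 3 11 lower and 0 higher, and on day 7 7 lower and 0 higher, beside the shares of all genes given above. The median log2 fold change over all 28 was -0.23, -0.75 and -0.29. The 4 most abundant were Actb, Flna, Myh9 and Cald1, which encode beta-actin, filamin A, non-muscle myosin and caldesmon. Actb differed by less than 2-fold on each day (-0.12, -0.42 and -0.34), and so did Myh9 (-0.02, -0.94 and -0.57). Flna and Cald1 hardly differed on day 0 (-0.21 and -0.03), were at least 2-fold lower on day 3 (-1.22 and -1.34) and less so on day 7 (-0.92 and -0.78). Among the 25 genes tested, Smtn (smoothelin, a smooth muscle protein, named after its value was seen) passed edgeR's test over the 3 days, with a log2 fold change of -1.15 (standard error 0.136, adjusted p = 0.0464, 4.06e-07 to 0.817 over the alternatives). The near-absent smooth muscle genes of this list were Kcnmb1, with 0 counts in all 6 libraries, Pln, with at most 8.42 normalized counts, and Ppp1r14a, with at most 10.2.

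Matrix genes of myofibroblasts were counted in the same way. Of 12 such genes, all of which reached the mean of 20, 8 were at least 2-fold lower after FGF8 on day 0, 11 on day 3 and 8 on day 7, beside 10.8%, 12.1% and 8.74% of all genes. On day 0, 3 of the 12 were above 0. The single one at least 2-fold higher was Tnc, on day 0, named after its value was seen. Their median log2 fold change was -2.22, -1.70 and -1.30. The most abundant were Col3a1, Fn1, Col1a1 and Postn. Postn, which encodes the matricellular protein periostin, had 244198, 72099 and 46265 normalized counts in untreated and 20207, 21083 and 17808 in FGF8-treated cells. Col1a1 was lower on each day (-2.40, -1.54 and -1.22) and so was Col3a1 (-0.87, -1.70 and -2.36), whereas Fn1, fibronectin, was higher on day 0 (0.72) and lower on days 3 and 7 (-1.95 and -2.17). None of the 12 passed edgeR's test over the 3 days, with 8 at an unadjusted p under 0.05, beside 23.3% of all genes. DESeq2 called 7 of them lower, and edgeR without both day 0 libraries called 10 lower. Of all genes, 12.4% and 15.5% were called in either direction. Preadipocyte markers moved in the same direction: all 4 were lower in the FGF8 library on each day, with summed levels of 25951, 8493 and 5395 normalized counts against 121400, 31870 and 26455 in untreated cells. The 4 adipocyte markers summed to 386270 normalized counts after FGF8 and 194550 without it on day 3, and to 435110 and 368820 on day 7. The 8 mural markers, of which Kcnj8, Abcc9 and Higd1b were at or near 0, summed to between 6978 and 9477 normalized counts in untreated and between 4440 and 5415 in FGF8-treated cells. Most of this sum on day 0 was Pdgfrb, which was lower after FGF8 on each day (-1.40, -1.70 and -1.15), and Notch3 was lower as well (-1.02, -1.03 and -0.67). Cspg4 (1.31, 0.73 and 0.22) and Mcam (0.52, 0.32 and 0.88) were higher after FGF8 on each day. The part of these shifts in the contractile genes was not tested.

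**Figure D4:**
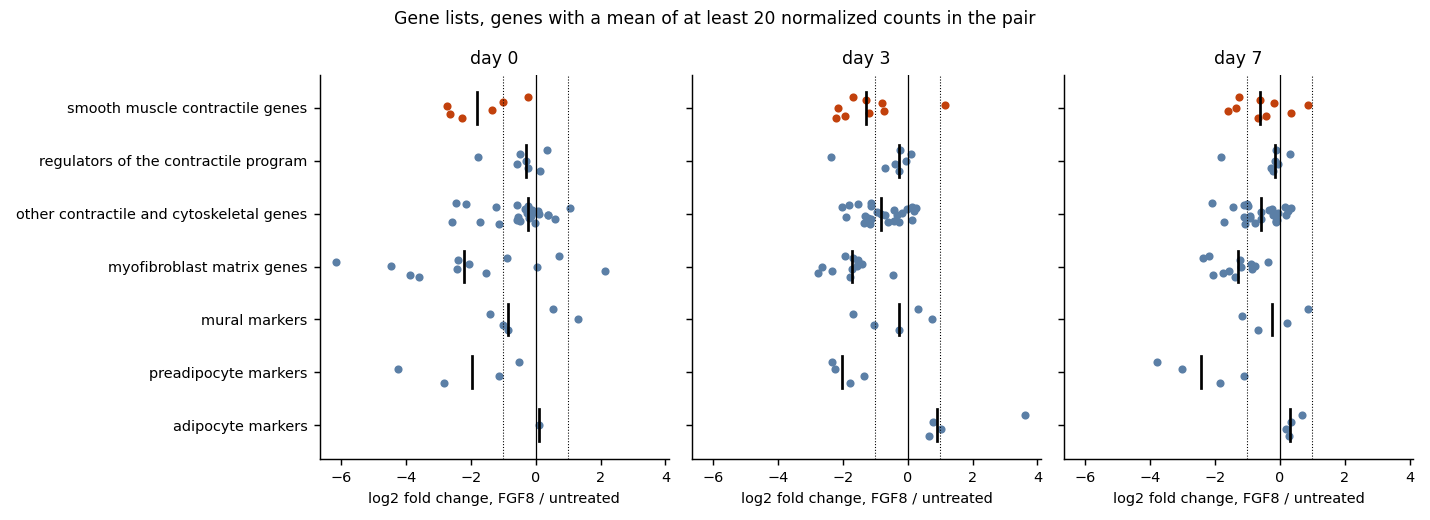
Log2 fold change after FGF8 relative to no FGF8 on days 0, 3 and 7 (horizontal axes) for the genes of each list that averaged 20 or more normalized counts over the pair, 1 point per gene, with a black bar at their median and dotted lines at 2-fold. Points of the contractile genes are orange, 6 on day 0 and 9 on days 3 and 7. The vertical position within a list only separates the points.

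The second comparison follows the genes through differentiation. From day 0 to day 3, Des, Myh11 and Lmod1 rose and Tpm1 and Tpm2 fell in a fit over all 6 libraries with treatment as a term. These 5 of 9 members passed edgeR's quasi-likelihood test at an adjusted p of 0.05, against 46.0% of all genes tested (26.2% higher and 19.8% lower), so the share of members was near that of all genes. Des rose from 7.34 to 82.7 normalized counts in untreated and from 8.96 to 183.9 in FGF8-treated cells, and its fitted log2 fold change was 4.03 (standard error 0.329, adjusted p = 0.00314 by edgeR). Myh11 rose 23.5-fold in untreated cells, from 16.2 to 379.3 normalized counts, and 10.4-fold in FGF8-treated cells, from 21.8 to 226.0, with a fitted log2 fold change of 3.94 (standard error 0.573, adjusted p = 0.00789 by edgeR). Lmod1 had a fitted change of 2.66 (standard error 0.517, adjusted p = 0.0153), Tpm1 one of -1.63 (standard error 0.268, adjusted p = 0.0102) and Tpm2 one of -1.41 (standard error 0.292, adjusted p = 0.0179, all by edgeR). Acta2 was 1.93-fold higher on day 3 than on day 0 in untreated and just short of 2-fold higher in FGF8-treated cells, and did not pass (fitted log2 fold change 1.03, adjusted p = 0.115 by edgeR). The calls depended on the day 3 libraries. Without the untreated library of day 3, Des, Myh11 and Tpm2 passed in edgeR, beside 18.9% of all genes, and without the FGF8 library of day 3 only Des did, beside 8.19%. Day 0 holds growing preadipocytes and days 3 and 7 hold cells after induction, so time, medium and cell state cannot be told apart.

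The changes within a treatment use the same libraries as the FGF8 comparisons and are not independent of them. Members were again counted where they reached the minimum mean in the pair. Within untreated cells, 4 members changed at least 2-fold from day 0 to day 3, with Myh11, Des and Lmod1 higher and Tpm1 lower. Of all genes 19.5% were higher and 15.5% lower. In FGF8-treated cells 5 did, the same 3 genes higher and Tpm1 and Tpm2 lower, beside 24.1% and 22.0% of all genes. From day 3 to day 7, by the same rule, Des was higher and Acta2, Myh11 and Lmod1 lower in untreated cells, beside 8.77% of all genes higher and 4.42% lower. In FGF8-treated cells Des was higher and Myh11 and Lmod1 lower, beside 8.16% and 5.40% of all genes. The directions of Des, Myh11 and Lmod1 were thus alike in both treatments, with Myh11 and Lmod1 highest on day 3. The sizes differed and were not tested against each other. Myh11 was 23.5-fold higher on day 3 than on day 0 in untreated and 10.4-fold in FGF8-treated cells, Lmod1 4.74-fold and 10.6-fold, and Des 11.3-fold and 20.5-fold. Acta2 ended differently in the 2 treatments. It went from 3669 to 1332 normalized counts between days 3 and 7 in untreated cells, a log2 fold change of -1.46 (-1.55 to -1.38), and from 783.4 to 838.1 in FGF8-treated cells (0.10, -0.03 to 0.22). In the fit over all 6 libraries, none of the 9 members passed for day 7 against day 3, against 0.0686% of all genes, with 3 at an unadjusted p under 0.05 in edgeR beside 21.3% of all genes. DESeq2 made 2 calls (Des higher and Myh11 lower) beside 9.50% of all genes. Des came closest, with a log2 fold change of 2.79 (standard error 0.255, adjusted p = 0.0588 by edgeR, 4.17e-13 to 0.413 over the alternatives). Without the untreated or without the FGF8 library of day 0, Des, Lmod1 and Myh11 passed, beside 21.1% and 20.6% of all genes.

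**Figure D5:**
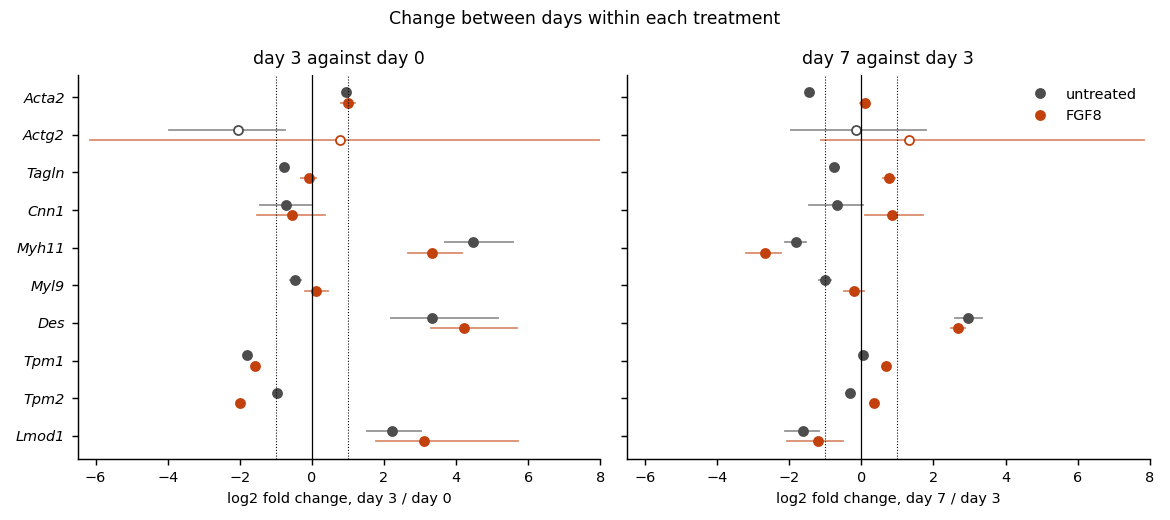
Log2 fold change of each contractile gene from day 0 to day 3 and from day 3 to day 7 (horizontal axes) in untreated (grey) and FGF8-treated cells (orange). Lines are 95% counting intervals, those of Actg2 clipped at the axis, open points have a mean under 20 normalized counts, and dotted lines mark 2-fold. Between days 3 and 7 Tagln lies at -0.75 in untreated and 0.77 in FGF8-treated cells.

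Across the 6 libraries the members formed groups of like course. On log2(normalized count + 1), Tagln had a Pearson correlation of 0.947 with Myl9 and 0.913 with Cnn1, Tpm1 one of 0.918 with Tpm2, and Acta2 one of 0.88 with Lmod1, while Des had -0.84 with Tpm2. These are descriptions over 6 libraries that share days and treatments. Among 11381 genes that averaged 100 or more normalized counts, those most like Acta2 in course were Elovl1, Nat8f1, Tyk2, Entpd2 and Bmp2k (Pearson correlations of 0.970 to 0.998). Of these, Entpd2 had the widest range, with 141.0, 442.9 and 174.6 normalized counts in untreated and 34.6, 80.0 and 91.05 in FGF8-treated cells of days 0, 3 and 7. Most like Myh11 were Srf (0.990), Ampd2, Add3, Gna11 and Rplp0, all at 0.978 or more. Srf shared the peak of Myh11 on day 3 in both treatments but ranged only from 669.8 to 1341 normalized counts, where Myh11 ranged from 16.2 to 379.3.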

How the data were processed

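RNA was sequenced from 6 bulk libraries, 1 for each of 2 treatments and 3 days. The authors deposited raw counts per gene for each library. The submitters' processing notes name Trim Galore, HISAT2 and mm39, and the strand setting of the counting is not given in the sources used here. The 10 members and all lists were chosen with earlier results of these data known. Named genes are the members, the regulators, the 4 most abundant genes of each other list, defining cell type markers and the 5 genes most like Acta2 and Myh11 in course.

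Counts were divided by DESeq2 (1.42.0) median-of-ratios size factors. With 1 library per condition, pairs of libraries were described without a test, by log2(normalized count + 1), a 2-fold rule, a minimum mean of 20 normalized counts in the pair and 95% Clopper-Pearson intervals, which cover counting error only. Library totals were 16403254 to 38551551 counts. Effects shared by days or treatments were tested with edgeR (4.0.16, R 4.3.3) quasi-likelihood fits of day plus treatment, with TMM scaling, filterByExpr and Benjamini-Hochberg adjustment. On simulated data with 200 genes changed 4-fold, this test called 200 for FGF8 with 10 of the unchanged genes (14410 genes in all). It called 181 for day 3 against day 0 with 11 (13792 genes) and 186 for day 7 against day 3 with 5 (13797 genes). The simulated counts had a common dispersion for all genes, and the changed genes were drawn from the more abundant ones. Each simulated FGF8 change was the same on all days, and each day change the same in both treatments. The simulation therefore does not show how the test does where an effect differs between days or treatments. In the measured libraries, Myl9 had a fitted 4.27-fold difference for FGF8 and did not pass (adjusted p = 0.0618 by edgeR). How many changes of this size the test misses in the measured libraries was not tested. Nothing says that the 6 libraries came from separate cultures, so p-values measure only a spread within these libraries. With 1 library per condition, it is the spread of the FGF8 effect between days, or of the day effect between treatments. Noise of single libraries cannot be told apart from it. Alternatives were other scalings, pseudocounts, fold rules and minima, no filter, DESeq2's Wald test, models without a term and fits without a library or a day. Exon lengths and coordinates came from GRCm39 with GENCODE M39, in which all 10 members were found, and promoters from RefSeq on GRCm38.p6.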

Additional observations from a re-analysis of the deposited data

Results flagged for a closer look

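Between days, 3 contractile genes moved in opposite directions in the 2 treatments with 95% counting intervals that excluded 0 in both. The difference between the treatments was not tested, since each rests on 1 library per condition. The share of all genes that meet this rule was not counted, so the number does not say whether these members stand out. From day 3 to day 7, the log2 fold change of Tagln was -0.75 in untreated and 0.77 in FGF8-treated cells, a difference of 1.515, and that of Tpm2 was -0.32 and 0.35, a difference of 0.6634. From day 0 to day 7, Acta2 had -0.51 in untreated and 1.10 in FGF8-treated cells, a difference of 1.605, and Tagln had -1.54 and 0.67, a difference of 2.211. Cnn1 also differed in sign but had an interval that included 0. From day 3 to day 7 it had -0.68 (-1.46 to 0.06) in untreated and 0.86 (0.11 to 1.72) in FGF8-treated cells, and from day 0 to day 7 -1.39 (-2.13 to -0.74) and 0.30 (-0.53 to 1.19). For Tagln, Tpm2 and Acta2 the directions stayed opposite in 5 of 5 other scalings and pseudocounts, which were chosen after seeing the data. Another pseudocount cannot turn the direction of a change, so only the scalings could have given a different outcome.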

How the results depend on the processing

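No paired analysis was possible because each condition has 1 library, so a replicate number pairs nothing. Libraries of the same day are matched by the day term of the fits. With a 4-fold rule, the members lower after FGF8 numbered 3 in preadipocytes (day 0), 2 on day 3 and 0 on day 7, and none (0) was higher on day 3. With a 1.5-fold rule, 5 were lower and 1 higher on day 7, and with a minimum mean of 100, 1 was lower on day 7. From day 0 to day 3, 8 members changed in untreated cells with a 1.5-fold rule and 2 with a minimum mean of 100, and 3 changed in FGF8-treated cells with the latter. From day 3 to day 7, the 1.5-fold rule gave 7 changed members in untreated and 6 in FGF8-treated cells, and the 4-fold rule gave 1 in untreated cells. The shares of all genes under these other rules were not counted. These numbers therefore show only how the member counts move with the rule, not whether the members differ from other genes.

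For the effect of FGF8 over the 3 days, 1 member (Myl9) passed without a filter on low counts, 5 by DESeq2 and 0 to 7 when libraries were left out. For day 3 against day 0, 3 passed without a treatment term and 1 to 6 when a library was left out. For day 7 against day 3, 1 passed without a filter, 2 by DESeq2 and 0 to 3 when a library was left out. Over all genes, the FGF8 effect had 185 calls, against 110 with median-of-ratios size factors, 419 without a filter, 1696 by DESeq2, 0 without a day term and 0 to 2511 when libraries were left out. Day 3 against day 0 had 6707 calls, against 4436 without a treatment term and 1214 to 8454 when a library was left out. Day 7 against day 3 had 10, against 268 without a filter, 1336 by DESeq2, 3 without a treatment term and 0 to 3238 when a library was left out. No member's FGF8 effect over the 3 days changed sign in these fits, nor did the 5 members called for day 3 against day 0. Among values not called, signs turned when a library was left out. For day 3 against day 0, Tagln ranged from -1.051 to 0.4138 and Myl9 from -0.5764 to 0.3992. For day 7 against day 3, Acta2 ranged from -1.42 to 0.1397, Tagln from -0.8756 to 0.9651, Cnn1 from -0.6828 to 0.957 and Tpm2 from -0.3796 to 0.4475. Without a treatment term, Tagln had -0.3161 and Cnn1 -0.03289 for day 7 against day 3. The causes of these shifts were not tested. Actg2, Cnn1 and Lmod1 are limited by depth, with at most 20, 43 and 104 counts in any library.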
